A study of Mus musculus with 80 samples.

Results

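Integrins are receptors that span the cell membrane and bind the extracellular matrix. The transcripts described here encode 10 of their subunits: the beta subunits Itgb1 and Itgb5 and the alpha subunits Itgav, Itga1, Itga4, Itga5, Itga6, Itga8, Itga10 and Itga11. They were listed by name as the subunits of matrix adhesion and not by a cut on their values, though earlier results of these data were known. All 10 were found among the 14688 genes of the count table. Of these genes 11307 reached 15 counts in at least 1 library and were tested, among them 9 of the 10 subunits. Itga8 did not reach that minimum.

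RNA was measured in 3 tissues of female C57BL/6J mice aged 21 days. They were the growth plate of the tibia, the calvaria and the cortical bone of the femur shaft. The calvaria sample was the frontal bone, with its periosteum and the suture mesenchyme beside it left on. Marrow had been washed from the cortical bone, on which periosteum and endosteum were left as well. The mice were wild type (WT), lacked the matrix metalloproteinase gene Mmp2 (MMP2-/-) or Mmp9 (MMP9-/-), or lacked both (MMPdKO). Each of the 12 groups held 7 libraries, except that there were 6 of MMP2-/- growth plate, 5 of MMP2-/- cortical bone and 6 of MMPdKO cortical bone. The 80 libraries came from 33 mice. WT and MMP9-/- mice were purchased, the MMP2-/- line came from another laboratory and the MMPdKO line was bred by crossing, so that the origin of a line and its genotype cannot be told apart.

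An integrin is a pair of 1 alpha and 1 beta subunit, and the pair decides which matrix proteins are bound. Outside the cell the pair holds collagen, fibronectin, vitronectin or laminin, and inside it is tied through talin and kindlin to the actin cytoskeleton, so that cells sense the stiffness and load of the matrix they sit in. In cartilage and bone this adhesion is known to orient chondrocytes in their columns, to anchor osteoblasts to collagen and to let osteoclasts seal onto mineral. Gelatinases such as MMP2 and MMP9 cleave matrix proteins that integrins bind.

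Depth limits how finely the rarer subunits can be read. The libraries held 114408 to 1921700 counts, with a median of 651164, and 1 count was worth 0.504 to 8.03 CPM, the unit in which each library's counts are scaled to the same total. Mmp2 was at most 51.0 CPM in any library of a line without it and at least 222 CPM in every other library. Mmp9 transcripts were lower but not absent in lines without that gene: in growth plates the highest such library had 993 CPM and the lowest other library 1556 CPM. In no tissue did the targeted and untargeted lines overlap for either gene. A list of 17 chondrocyte genes, all detected, summed to 7239 to 42830 CPM in WT growth plates and to 1178 to 3537 CPM in WT calvaria. In WT cortical bone it summed to 1887 to 14864 CPM, which overlapped growth plate. Erythroid genes, 9 of 10 detected in every group, took 35500 to 173835 CPM in the WT libraries of the 3 tissues, so red cell transcripts were present throughout. In bulk tissue fewer cells of a type and less RNA per cell cannot be told apart.

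The promoters of the 3 subunits whose growth plate levels differed between MMPdKO and WT are shown here, because these are the members on which the genotype comparison turns. RefSeq (GRCm38.p6) held a promoter entry for 9 of the 10 subunits, all but Itga6, each running from 250 bases before to 50 bases after the start of transcription. Capitals mark the GC box, searched as GGGCGG on both strands.

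Itgb1, chr8:128685404-128685703, plus strand: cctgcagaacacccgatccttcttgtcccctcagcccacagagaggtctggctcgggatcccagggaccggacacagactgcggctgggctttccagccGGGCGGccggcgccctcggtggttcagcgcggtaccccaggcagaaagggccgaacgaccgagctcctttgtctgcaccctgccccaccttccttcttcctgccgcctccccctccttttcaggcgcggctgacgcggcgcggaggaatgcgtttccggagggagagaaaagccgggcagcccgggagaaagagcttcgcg

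Itgb5, chr16:33829415-33829714, plus strand: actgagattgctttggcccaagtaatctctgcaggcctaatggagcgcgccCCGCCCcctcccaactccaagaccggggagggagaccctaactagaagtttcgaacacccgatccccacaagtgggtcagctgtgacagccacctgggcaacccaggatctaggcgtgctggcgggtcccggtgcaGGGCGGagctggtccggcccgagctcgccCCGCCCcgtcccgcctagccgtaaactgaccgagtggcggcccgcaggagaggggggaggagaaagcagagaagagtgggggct

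Itga5, chr15:103366742-103367041, minus strand: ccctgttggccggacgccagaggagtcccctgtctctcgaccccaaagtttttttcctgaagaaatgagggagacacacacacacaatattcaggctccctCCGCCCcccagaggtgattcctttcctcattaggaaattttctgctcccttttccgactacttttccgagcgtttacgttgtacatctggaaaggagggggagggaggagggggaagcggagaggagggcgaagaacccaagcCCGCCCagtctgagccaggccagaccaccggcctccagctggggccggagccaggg

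The GC box occurred once in the Itgb1 window, at 3 places in that of Itgb5 and at 2 in that of Itga5. It also occurred once each in the windows of Itgav and Itga4, which did not pass in that comparison. The windows of Itga1, Itga8, Itga10 and Itga11 held none. Of 32851 promoters of the same length 35.7% held at least 1. The TATA box, searched as TATAAA on both strands, was in none of the 9 windows and in 13.6% of all promoters. The AP-1 site, searched as TGANTCA on both strands, was in none of the 9 and in 7.81% of all promoters. These matches describe letters only. Only GC boxes were found in these 3 windows, so no motif overlapped another.

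**Figure D1:**
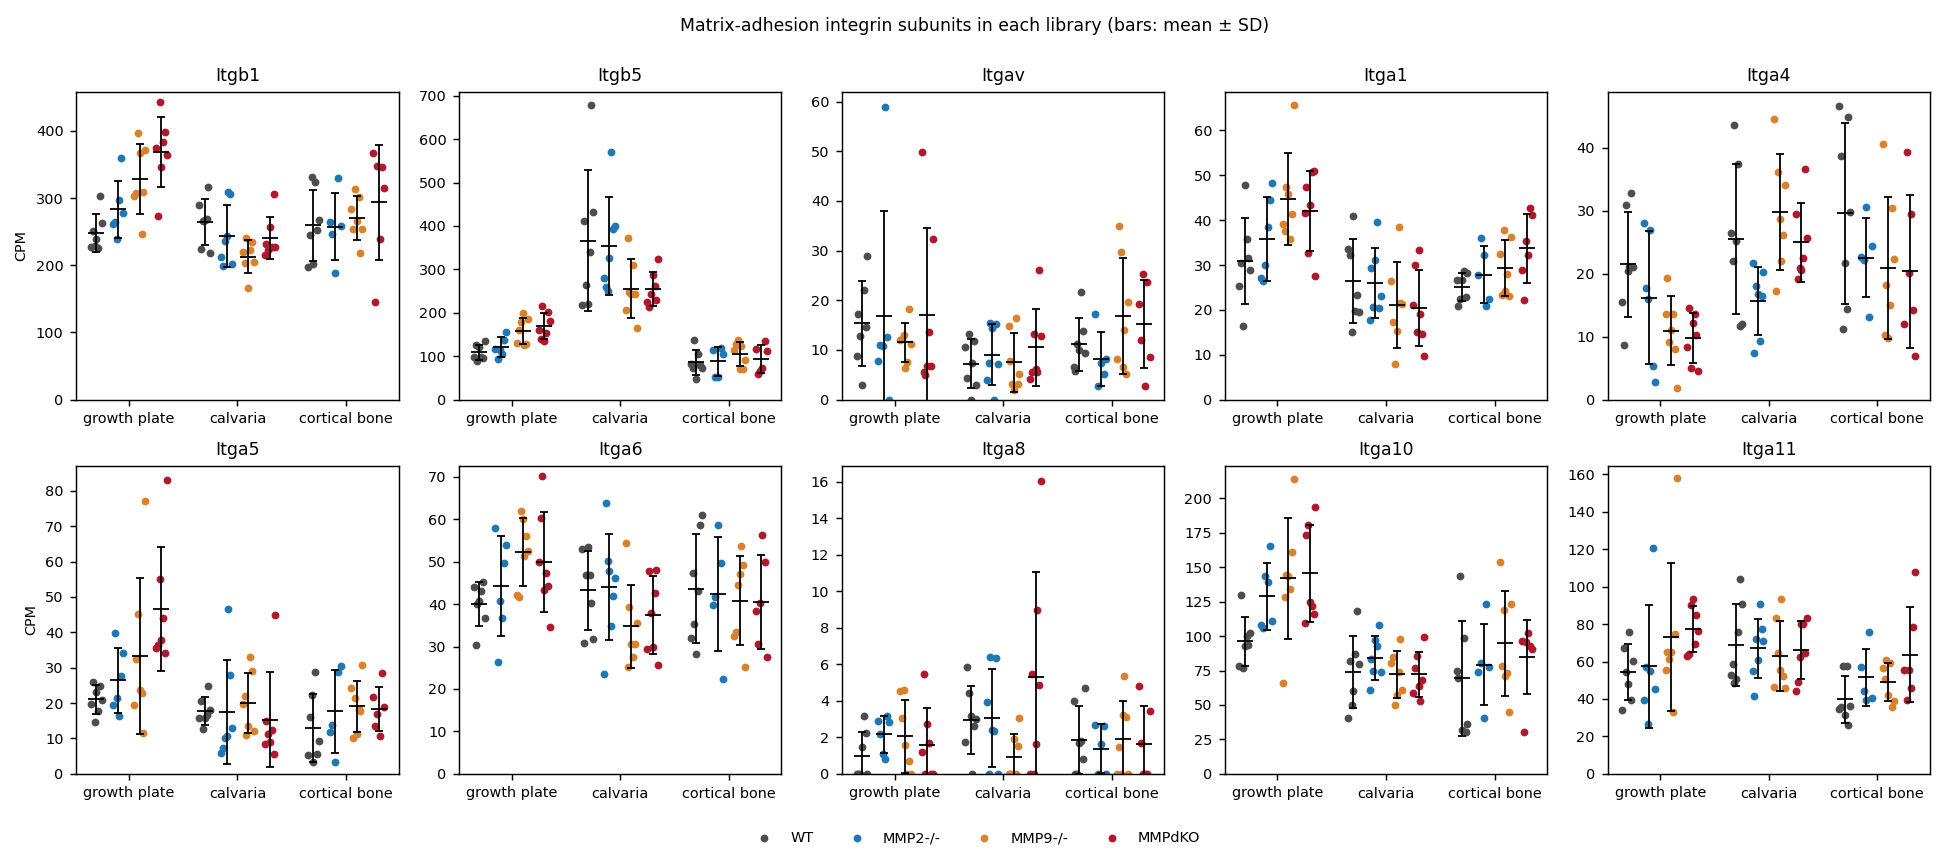
Level of each of the 10 subunits in the 80 libraries, in CPM on a linear axis, by tissue and genotype, with points for libraries and bars for the mean and SD, cut at 0 for Itgav and Itga8. Itgb5 stood highest in calvaria, with WT libraries of 217 to 678 CPM against 48.3 to 138 CPM in WT cortical bone.

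The subunits were read at unequal precision, and levels were compared between samples only, never between genes. Itgb1, the beta subunit that joins most of the alpha subunits listed here, was detected in every library with 35 to 519 counts. Its level ran from 145 to 444 CPM with a median of 262 CPM. Itgb5, the partner of Itgav in a vitronectin receptor, ran from 48.3 to 678 CPM with a median of 138 CPM. Itgav, the alpha subunit shared by several receptors of the RGD motif, ran from 0 to 58.9 CPM and had no count in 3 libraries. The collagen receptor subunits Itga1, Itga10 and Itga11 had medians over the 80 libraries of 28.9, 91.7 and 57.4 CPM. Itga5, of the main fibronectin receptor, had a median of 19.5 CPM. Itga4, whose receptor binds fibronectin and the vascular adhesion molecule VCAM1 and which blood cells carry, had a median of 20.2 CPM.

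Itga8, whose receptor binds nephronectin, was at the edge of detection. It had no count in 28 of the 80 libraries, at most 8 counts in any, and 133 counts over all of them. Its group means were 0.928 to 5.29 CPM, while 3 counts amounted to between 1.51 and 24.1 CPM depending on the library. No difference between groups could be read for it at this depth.

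The first question was whether the subunits differed between the tissues of WT mice. Itgb5 was lower in growth plate and in cortical bone than in calvaria, and Itga11 was lower in cortical bone than in calvaria. In the 27 tests of 9 subunits over 3 pairs of tissues, 3 passed an adjusted p of 0.05 (edgeR's quasi-likelihood test, Benjamini-Hochberg over all genes tested), and all 3 were lower than in calvaria. Between growth plate and calvaria 1 of 9 subunits passed, as lower, beside 5.24% of all genes tested and 2.4% that passed as lower. Between growth plate and cortical bone 0 of 9 passed by edgeR, beside 2.97%, and DESeq2 called 0. At an unadjusted p under 0.05 there was 1 (Itga10), beside 1866 of the 11307 genes. Between cortical bone and calvaria 2 of 9 passed, both as lower, beside 6.83% and 4.93% as lower. In a joint test for any difference among the WT tissues 1 of 9 passed, Itgb5, beside 9.45%.

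Itgb5 in WT calvaria was 217 CPM in the lowest library, 340 CPM in the median and 678 CPM in the highest. In WT growth plate it was 89.2, 98.9 and 134 CPM, and in WT cortical bone 48.3, 79.8 and 138 CPM. Every WT calvaria library was above every WT library of the other tissues. The log2 fold change from calvaria to growth plate was -1.76 ± 0.21 (SE), with an adjusted p of 7.17e-10 by edgeR. From calvaria to cortical bone it was -2.11 ± 0.21 (SE), with an adjusted p of 2.4e-12 by edgeR. Growth plate and cortical bone overlapped.

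Itga11, the alpha subunit of a receptor for fibrillar collagen in mesenchymal cells, was 48.7, 58.6 and 104 CPM in WT calvaria and 26.1, 35.9 and 57.7 CPM in WT cortical bone (lowest, median and highest). The groups overlapped. Its log2 fold change was -0.83 ± 0.25 (SE), with an adjusted p of 0.0258 by edgeR. That call was lost without calvaria WT replicate 6 or 7 or without cortical bone WT replicate 1, 2, 4 or 6, and over all 14 fits without 1 library the log2 fold change ranged over -0.93 to -0.69 (adjusted p 0.0139 to 0.108). It was also lost with the mouse as a fixed block, at -0.70 (adjusted p 0.116), and at -0.73 without that block when the same libraries were fitted (adjusted p 0.118). With the muscle and neutrophil scores as covariates it was -0.56 and the call was lost (adjusted p 0.209), and 18 skeletal muscle markers, all detected, summed to 3772 to 60308 CPM in WT calvaria and to 419 to 19670 CPM in WT cortical bone. A list of 12 genes of fibroblasts and periosteum, all detected, summed to 353 to 933 CPM in WT calvaria and to 233 to 486 CPM in WT cortical bone, and its part in the lower Itga11 and Itgb5 of cortical bone was not tested.

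No other subunit passed between WT tissues, which does not show that they were alike. Itgb1 was 225, 240 and 303 CPM in growth plate, 219, 268 and 316 CPM in calvaria and 197, 252 and 331 CPM in cortical bone. The 3 tissues overlapped throughout. Its log2 fold change from calvaria to growth plate was -0.09, with a 95% interval of -0.36 to 0.18. Itga10, which serves a chondrocyte receptor for collagen II, was 76.5, 93.6 and 130 CPM in growth plate and 40.6, 80.0 and 118 CPM in calvaria, a log2 fold change of 0.36 with an interval of -0.13 to 0.85. Itgav was the least precisely read of the tested members, with a log2 fold change from calvaria to growth plate of 0.86 and an interval of -0.19 to 1.91.

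**Figure D2:**
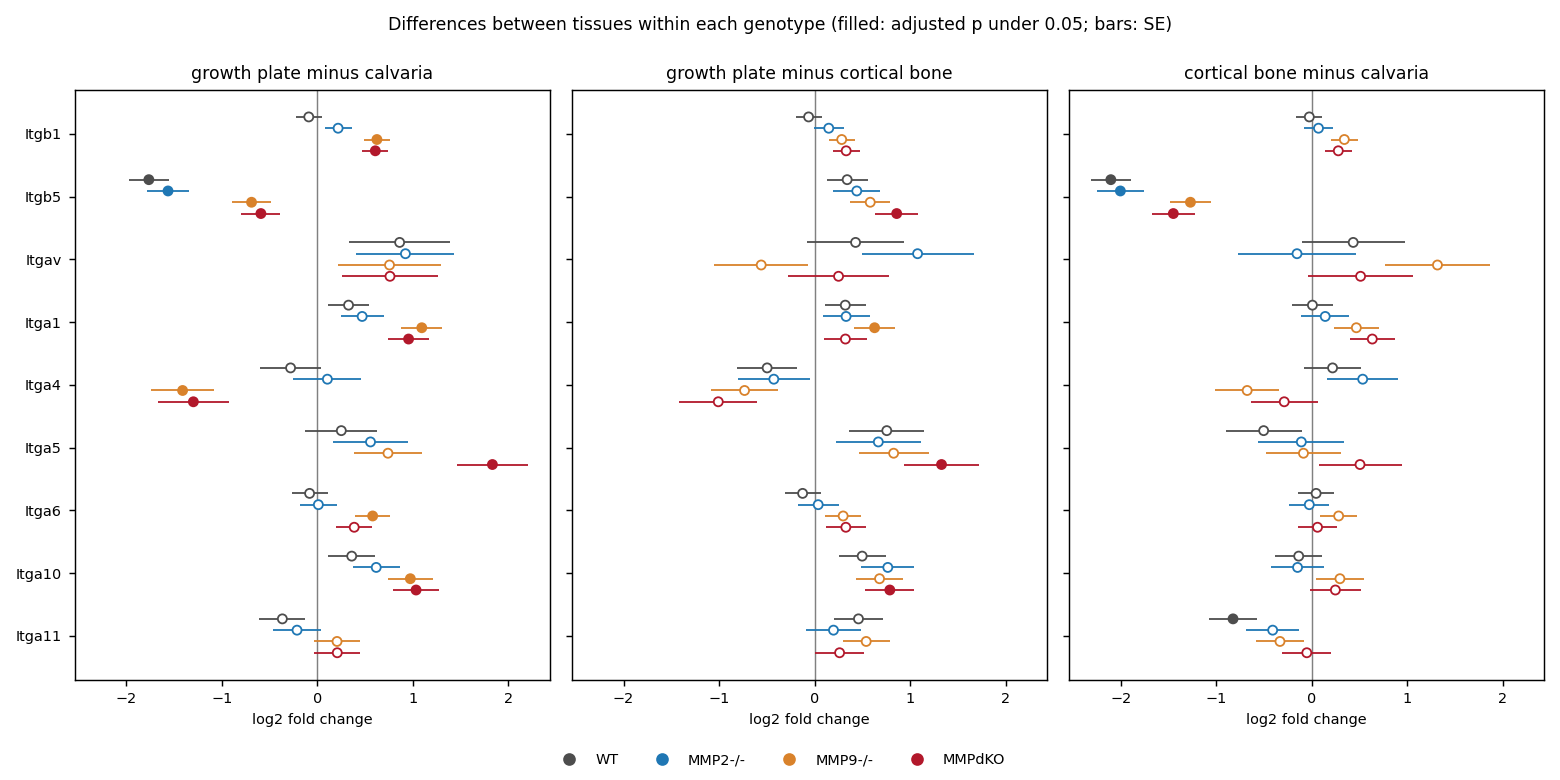
Differences between tissues for the 9 tested subunits, in log2 fold change with bars for the SE, for each genotype; filled points have an adjusted p under 0.05. Itgb5 lay left of 0 against calvaria in every genotype, from -1.76 in WT to -0.59 in MMPdKO for growth plate and from -2.11 to -1.27 for cortical bone.

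The second question was whether these tissue differences recurred in the lines without gelatinases. In the knockout lines 20 of 81 tests passed, 12 of them higher and 8 lower in the first tissue named. By genotype, 2 of 27 passed in MMP2-/-, 8 of 27 in MMP9-/- and 10 of 27 in MMPdKO. The background rose as well, and the counts are read against it. Between growth plate and calvaria 1 of 9 subunits passed in MMP2-/- beside 5.65% of all genes, 6 of 9 in MMP9-/- beside 26.2% and 6 of 9 in MMPdKO beside 29.6%. Between growth plate and cortical bone 0 of 9 passed in MMP2-/- beside 3.03% (edgeR, and 0 by DESeq2), 1 of 9 in MMP9-/- beside 10.1% and 3 of 9 in MMPdKO beside 12.2%. Itga10 alone had an unadjusted p under 0.05 there in MMP2-/-, beside 1929 of the 11307 genes. Between cortical bone and calvaria 1 of 9 passed in each line, beside 3.35% in MMP2-/-, 6.24% in MMP9-/- and 4.84% in MMPdKO. In the joint test for any difference among tissues 1 of 9 passed in MMP2-/- beside 8.16% of all genes, 6 of 9 in MMP9-/- beside 26.5% and 6 of 9 in MMPdKO beside 28.8%.

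Itgb5 was lower than in calvaria in all 8 comparisons of growth plate or cortical bone with calvaria, WT included. In MMP2-/- mice it was 250, 327 and 570 CPM in calvaria and 92.6, 115 and 156 CPM in growth plate. In the 5 MMP2-/- cortical bone libraries it was 115, 52.6, 51.9, 118 and 106 CPM, all below every calvaria library. The log2 fold changes in MMP2-/- were -1.56 ± 0.22 for growth plate and -2.01 ± 0.24 for cortical bone (SE), with adjusted p of 1.25e-07 and 4.51e-09 by edgeR.

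In MMP9-/- mice Itgb5 was 126, 160 and 199 CPM in growth plate and 165, 244 and 373 CPM in calvaria, which overlapped. Growth plate minus calvaria was -0.69 ± 0.20 on the log2 scale (SE, adjusted p 0.00692 by edgeR). In MMPdKO it was 135, 161 and 216 CPM in growth plate and 213, 242 and 324 CPM in calvaria, whose nearest libraries overlapped. There the log2 fold change was -0.59 ± 0.20 (SE, adjusted p 0.0218 by edgeR). With the erythroid and B cell scores as covariates these values were -1.23 and -1.25. Cortical bone stayed below calvaria without overlap in both lines, at -1.27 ± 0.21 in MMP9-/- and -1.45 ± 0.23 in MMPdKO (SE), with adjusted p of 1.8e-05 and 4.16e-06 by edgeR. In MMPdKO mice growth plate Itgb5 also exceeded that of cortical bone, which was 58.0, 92.0 and 135 CPM, by 0.86 ± 0.23 on the log2 scale (SE, adjusted p 0.00736 by edgeR).

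Itgb1 was higher in growth plate than in calvaria in MMP9-/- and in MMPdKO. In MMP9-/- mice it was 246, 309 and 397 CPM in growth plate and 167, 219 and 240 CPM in calvaria, without overlap, and the difference on the log2 scale was 0.62 ± 0.14 (SE, adjusted p 0.000306 by edgeR). In MMPdKO mice it was 274, 375 and 444 CPM against 215, 228 and 306 CPM, which overlapped, with a difference of 0.61 ± 0.14 (SE, adjusted p 0.000399 by edgeR).

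The collagen receptor subunits Itga1 and Itga10 were higher in growth plate than in calvaria in the same lines. Itga1 was higher by 1.09 ± 0.21 on the log2 scale in MMP9-/- and by 0.96 ± 0.22 in MMPdKO (SE), with adjusted p of 7.23e-05 and 0.000506 by edgeR. Its MMPdKO libraries were 27.7, 43.3 and 51.0 CPM in growth plate and 9.63, 19.1 and 33.3 CPM in calvaria, which overlapped. Itga10 was higher by 0.97 ± 0.24 in MMP9-/- and by 1.03 ± 0.24 in MMPdKO (SE), with adjusted p of 0.0013 and 0.000746 by edgeR. In MMPdKO mice the growth plate held 109, 125 and 194 CPM of it and calvaria 52.8, 68.4 and 99.5 CPM, without overlap. Itga11 did not pass, with log2 fold changes of 0.21 in each of these lines.

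Itga5 and Itga6 each passed in 1 line. Itga5 in MMPdKO was 34.0, 37.9 and 83.0 CPM in growth plate, 5.70, 11.4 and 44.9 CPM in calvaria and 10.7, 17.8 and 28.5 CPM in cortical bone. The calvaria group overlapped the growth plate group and the cortical bone group did not. The log2 fold change of growth plate was 1.83 ± 0.38 from calvaria and 1.33 ± 0.39 from cortical bone (SE), with adjusted p of 0.000125 and 0.0171 by edgeR. Itga6, of the laminin receptors, was 41.7, 52.6 and 61.9 CPM in MMP9-/- growth plate and 25.2, 30.6 and 54.4 CPM in calvaria, which overlapped. Its log2 fold change was 0.58 ± 0.18 (SE, adjusted p 0.0139 by edgeR).

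Itga4 ran the other way. In MMP9-/- mice it was 1.88, 11.1 and 19.3 CPM in growth plate and 17.3, 28.7 and 44.5 CPM in calvaria, with a log2 difference of -1.41 ± 0.33 (SE, adjusted p 0.000655 by edgeR). In MMPdKO mice it was 4.61, 10.2 and 14.6 CPM against 19.1, 22.5 and 36.6 CPM, without overlap, with a log2 difference of -1.30 ± 0.37 (SE, adjusted p 0.00504 by edgeR). These are low counts: MMPdKO growth plates held 2 to 9 counts of Itga4 each. Of the 6 subunits that passed between growth plate and calvaria in MMP9-/- and the 6 in MMPdKO, 5 were shared, 83.3% of each list. Of all genes 26.2% passed in MMP9-/- and 29.6% in MMPdKO, and how many of those were shared was not counted. The overlap is therefore not read as a trait of the subunits, though the comparisons used different libraries.

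Blood cell markers differed between these tissues in the same lines. Erythroid markers, 9 of 10 detected, summed to 11592 to 76053 CPM in MMP9-/- growth plate and to 93485 to 176458 CPM in MMP9-/- calvaria. B cell markers, 10 of 10 detected, summed to 170 to 763 CPM in MMPdKO growth plate and to 1478 to 2355 CPM in MMPdKO calvaria. Chondrocyte markers, 17 of 17 detected, summed to 22348 to 90664 CPM and to 1496 to 3636 CPM there. With marker scores as covariates, in 4 fits of which all but that with the muscle and neutrophil pair were chosen after seeing the data, 9 to 11 of the 81 tests passed in place of 20. Itgb5 passed against calvaria in every one of the 8 comparisons under all alternatives run.

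The other calls between growth plate and calvaria were mostly lost in those 4 fits. The erythroid, B cell and chondrocyte sums given above did not overlap between these tissues, so tissue and score are hard to tell apart there. No cause is read from a lost call. Itgb1 lost its call in 3 of them in each line, all but that with the chondrocyte score, and its lowest log2 fold change was 0.20 in MMP9-/- and 0.12 in MMPdKO. Itga4 and Itga10 lost theirs in all 4 in each line. The value of Itga4 came as near to 0 as -0.32 in MMP9-/- and -0.03 in MMPdKO, and that of Itga10 fell as low as 0.27 and 0.29. Itga5 in MMPdKO lost its call in all 4 (lowest 0.93), and Itga6 in MMP9-/- in all but that with the chondrocyte score (lowest 0.52). Itga1 passed in all 4 in MMP9-/- (lowest 0.75) and lost its call in 3 of 4 in MMPdKO (lowest 0.58).

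Which tissue calls depended on single libraries was checked by leaving each one out. Itga1 in MMP9-/- growth plate against cortical bone, at 0.63 ± 0.21 (SE, adjusted p 0.0437 by edgeR), lost its call without growth plate MMP9-/- replicate 3, 4 or 7 or cortical bone MMP9-/- replicate 2, 4, 5 or 6 (0.53 to 0.72 over all 14 such fits, adjusted p up to 0.129), and with the mouse as a fixed block at 0.70 (adjusted p 0.062). Itga5 in MMPdKO growth plate against cortical bone lost its call without growth plate MMPdKO replicate 7 or cortical bone MMPdKO replicate 2 (1.14 to 1.48 over all 13 such fits, adjusted p up to 0.0633), and with the mouse as a fixed block at 0.95 (adjusted p 0.139). Itga10 in the same comparison, at 0.79 ± 0.26 (SE, adjusted p 0.0324 by edgeR), lost its call without growth plate MMPdKO replicate 2, 3 or 7 or cortical bone MMPdKO replicate 2 (0.60 to 0.85 over all 13, adjusted p up to 0.165), and with either block of the replicate number or the mouse, at 0.76 and 0.63 (adjusted p 0.0512 and 0.13). With marker scores Itga1 and Itga10 lost these calls in all 4 fits (lowest 0.27 and 0.33), and Itga5 and the Itgb5 difference between MMPdKO growth plate and cortical bone in 3 of 4 (lowest 0.50 and 0.37). The call for Itga1 was also lost with RLE size factors.

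The third question was whether loss of the gelatinases went with other subunit levels inside a tissue. In the growth plate of MMPdKO mice 3 of 9 subunits were higher than in WT and 0 were lower, beside 8.01% of all genes that passed and 3.38% that passed as higher. The 3 were Itgb1, Itgb5 and Itga5. In the MMP2-/- growth plate 0 of 9 passed by edgeR, beside 0.0619% of all genes, and 0 by DESeq2. At an unadjusted p under 0.05 there were 0, beside 923 of the 11307 genes. In the MMP9-/- growth plate 0 of 9 passed by edgeR, beside 0.946%, and DESeq2 called 1, Itgb1. At an unadjusted p under 0.05 there were 6 of 9, beside 1746 of the 11307 genes. These 3 comparisons share the WT libraries.

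Itga5 had the largest difference of these 3. In WT growth plates it was 14.6, 21.0 and 26.0 CPM, and in MMPdKO growth plates 34.0, 37.9 and 83.0 CPM. All 7 MMPdKO libraries were above every WT library, a separation that 1.4% of all genes showed in this comparison. The log2 fold change was 1.13 ± 0.35 (SE, n = 7 and 7, adjusted p 0.0346 by edgeR). The raw counts were 8 to 22 in WT and 10 to 36 in MMPdKO.

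Itgb1 in WT growth plates was 225, 240 and 303 CPM, and in MMPdKO growth plates 274, 375 and 444 CPM. Of the MMPdKO libraries 6 of 7 were above every WT library, so the groups overlapped by 1 library. On the log2 scale the difference was 0.57 ± 0.14 (SE, adjusted p 0.00724 by edgeR). Across the 4 genotypes of growth plate Itgb1 was also the 1 member that passed the joint test for any genotype difference (adjusted p 0.0279 by edgeR), beside 3.64% of all genes.

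Itgb5 in WT growth plates was 89.2, 98.9 and 134 CPM, and in MMPdKO growth plates 135, 161 and 216 CPM. All 7 were above every WT library, though the nearest pair, at 134 and 135 CPM, lay close together. It differed by 0.64 ± 0.21 on the log2 scale (SE, adjusted p 0.0454 by edgeR). Itga4 was 8.67, 21.0 and 32.7 CPM in WT and 4.61, 10.2 and 14.6 CPM in MMPdKO, with 3 of 7 MMPdKO libraries below every WT library. Its log2 fold change of -1.10 ± 0.38 (SE) had an adjusted p of 0.0557 by edgeR and did not pass; it passed in 3 alternatives, DESeq2, the other filter on low counts (filterByExpr) and a fit of only the groups compared (adjusted p 0.0412 to 0.0485). Counting direction alone, 8 of the 9 subunits were higher in MMPdKO, 8 in MMP2-/- and 7 in MMP9-/-, all against the same WT libraries. The share of all genes that were higher was not counted. The median log2 fold change of the subunits was 0.52 in MMPdKO beside -0.01 over all genes, 0.40 in MMP9-/- beside 0.01 and 0.18 in MMP2-/- beside 0.03. In MMP2-/- 0 subunits had an unadjusted p under 0.05 by edgeR, so its count of directions is not read as a rise.

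How these 3 calls depended on single libraries and on the method was checked. The Itga5 call was lost without growth plate WT replicate 1, 3 or 5 or growth plate MMPdKO replicate 3 or 7 (log2 fold change 0.94 to 1.19 over all 14 such fits, adjusted p up to 0.111). The Itgb5 call was lost without growth plate WT replicate 1, 3, 4, 5 or 6 or growth plate MMPdKO replicate 3, 6 or 7 (0.55 to 0.69 over all 14, adjusted p up to 0.126), with no filter on low counts, and by limma voom with the mouse as a random block, at 0.63 (adjusted p 0.0613), a fit that changed the method and added the block together. Itgb1 passed whichever of the 14 libraries was left out (0.50 to 0.63, adjusted p up to 0.0316).

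**Figure D3:**
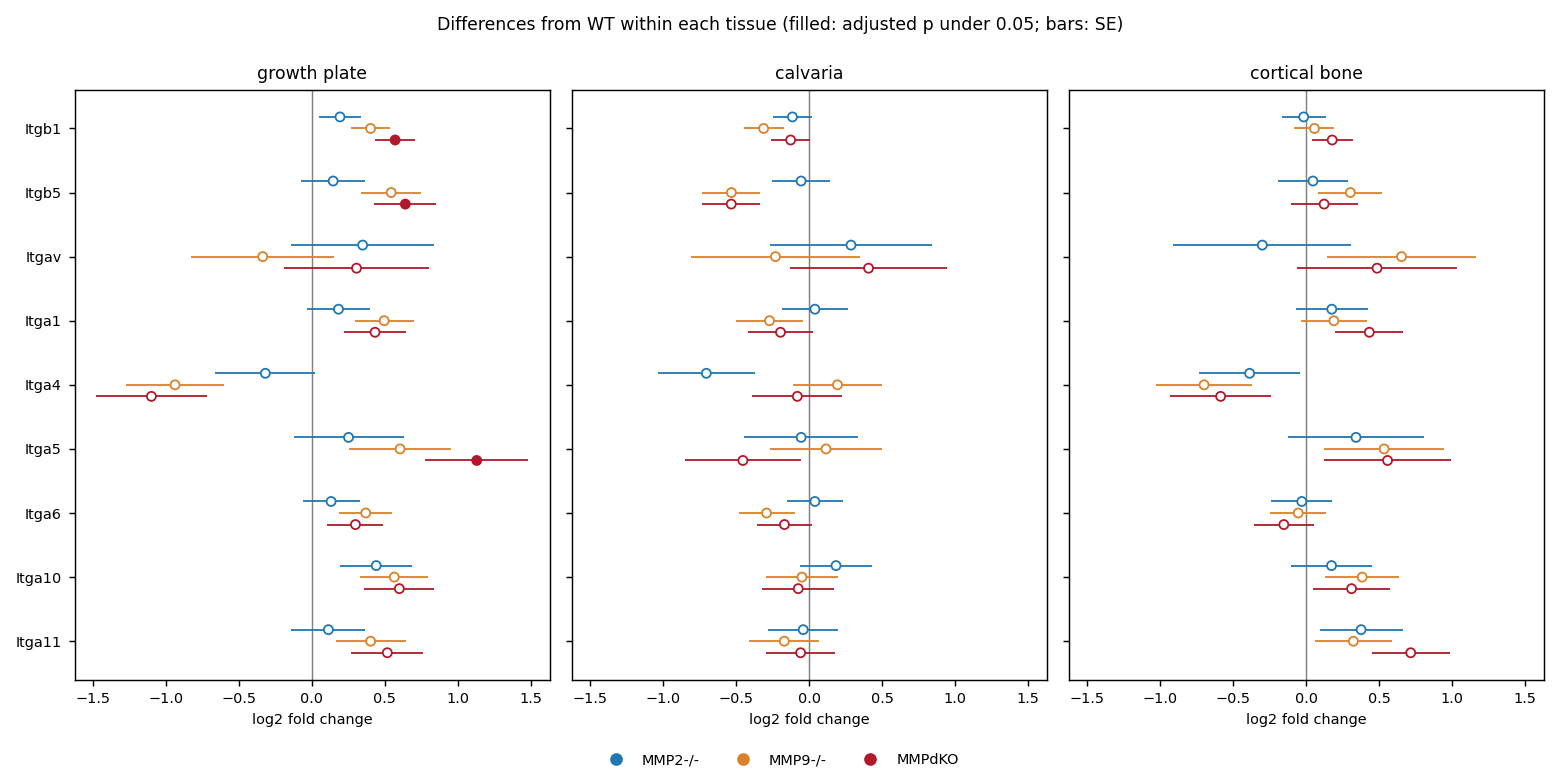
Differences of each knockout line from WT within each tissue for the 9 tested subunits, in log2 fold change with bars for the SE; filled points have an adjusted p under 0.05. The 3 filled points are Itgb1, Itgb5 and Itga5 in MMPdKO growth plate, at 0.57, 0.64 and 1.13.

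In the same growth plates other cell types differed with genotype. B cell markers, 10 of 10 genes detected and none at 0 in a group, summed to 1020 to 2038 CPM in WT and to 170 to 763 CPM in MMPdKO. Erythroid markers, 9 of 10 detected, summed to 57172 to 143245 CPM in WT and to 11904 to 70928 CPM in MMPdKO. Neutrophil markers, 13 of 13 detected, summed to 3398 to 9350 CPM and to 652 to 3546 CPM. Endothelial markers, 12 of 12 detected, summed to 479 to 767 CPM and to 652 to 1331 CPM. Chondrocyte markers, 17 of 17 detected, summed to 7239 to 42830 CPM and to 22348 to 90664 CPM. Their part in the higher Itgb1, Itgb5 and Itga5 was not tested. With the muscle and neutrophil scores, the erythroid and B cell scores, or the endothelial score as covariates (all but the muscle and neutrophil pair chosen after seeing the data), 0 of the 27 growth plate tests passed, and with the chondrocyte score, also chosen afterwards, 1 passed, Itgb1. The B cell sums did not overlap between the genotypes, so genotype and that score are hard to tell apart. The erythroid, neutrophil, endothelial and chondrocyte sums did overlap, so this limit concerns only the fit with the B cell score. The cause of the lost calls was not tested in any of these fits. Over the alternatives the lowest log2 fold change was 0.12 for Itgb1, 0.04 for Itgb5 and 0.32 for Itga5.

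**Figure D4:**
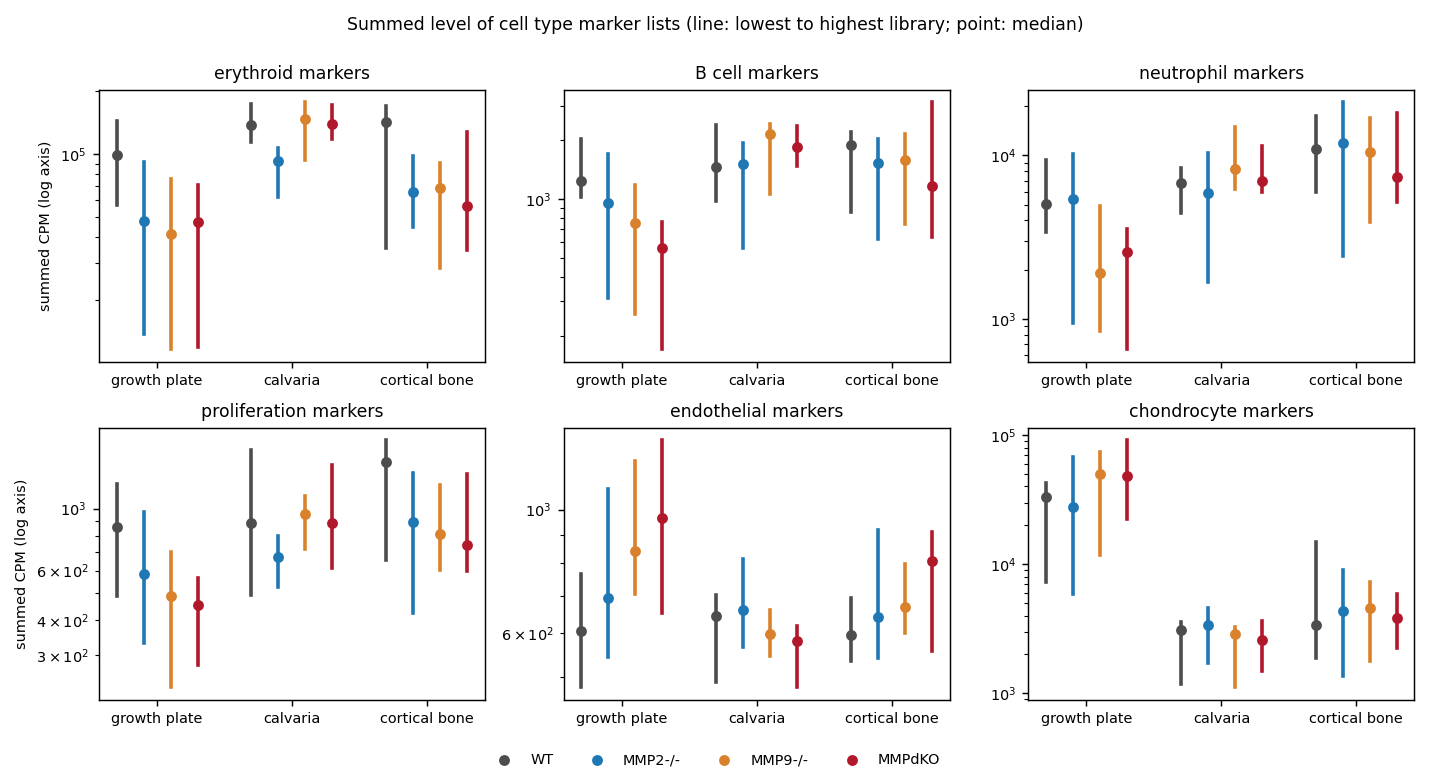
Summed level of 6 cell type marker lists, in CPM on a log axis, by tissue and genotype, with a point for the median library and a line from the lowest to the highest. In growth plate the erythroid, B cell, neutrophil and proliferation sums were lower in MMPdKO than in WT by their medians, and the endothelial and chondrocyte sums were higher.

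Within a tissue Itga4 was compared with the marker lists of other cells. Over the deviations of libraries from their group means, its correlation with the score (mean log2 CPM) of 8 proliferation markers was 0.85 in growth plate (27 libraries), 0.75 in calvaria (28) and 0.64 in cortical bone (25). With the 10 B cell markers it was 0.72, 0.51 and 0.51, with the erythroid markers 0.59, 0.59 and 0.70, with the neutrophil markers 0.68, 0.31 and 0.47, with the megakaryocyte markers 0.72, 0.32 and 0.53, and with the macrophage markers 0.29, 0.16 and 0.27. The points share libraries, depth and the count scale, and the values describe them only. Proliferation markers, 8 of 8 detected, summed to 485 to 1225 CPM in WT growth plates and to 276 to 567 CPM in those of MMPdKO.

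In calvaria and cortical bone no subunit passed against WT. In calvaria 0 of 27 tests passed by edgeR and 0 by DESeq2, with a smallest adjusted p of 0.611 by edgeR. At an unadjusted p under 0.05 there were 4, beside 848, 619 and 525 of the 11307 genes in MMP2-/-, MMP9-/- and MMPdKO. The backgrounds were 0.0708% of genes in MMP2-/- and 0.0177% in each of MMP9-/- and MMPdKO, and 0.177% in the joint test over the 4 genotypes, which no subunit passed. The log2 fold changes ran from -0.70 to 0.41. Itgb5 in MMPdKO calvaria, at 213, 242 and 324 CPM against 217, 340 and 678 CPM in WT, gave -0.53 with an interval of -0.93 to -0.14 and an adjusted p of 0.844 by edgeR.

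In cortical bone 0 of 27 passed by edgeR and 0 by DESeq2, with a smallest adjusted p of 0.316 by edgeR. At an unadjusted p under 0.05 there were 2, beside 710, 1111 and 1216 of the 11307 genes in MMP2-/-, MMP9-/- and MMPdKO. The backgrounds were 0.0354% in MMP2-/- and 0.0442% in each of MMP9-/- and MMPdKO, and 0.15% in the joint test, which no subunit passed. The log2 fold changes ran from -0.70 to 0.71, the highest being Itga11 in MMPdKO, at 39.2, 55.3 and 108 CPM against 26.1, 35.9 and 57.7 CPM in WT. The groups overlapped. The 95% interval of that difference was 0.18 to 1.24. On simulated counts for MMPdKO against WT growth plate, with 7 libraries each, 54.7% of genes changed 2-fold and 16% of genes changed 1.5-fold were recovered. Cortical bone was not simulated. It had only 5 MMP2-/- and 6 MMPdKO libraries, and a median of 583691 counts beside 720462 in growth plate. Changes of that order could be missed there.

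Whether a genotype difference itself differed between tissues was tested next. The joint test of tissue by genotype passed for 0 of 9 subunits by edgeR, beside 0.0531% of all genes. At an unadjusted p under 0.05 there were 3 (Itgb5, Itgb1 and Itga4), beside 1223 of the 11307 genes. The likelihood ratio test of DESeq2 called 1 member, Itgb5 (adjusted p 0.0345), and gave no adjusted p for Itga1, Itga4, Itga5, Itga6 and Itgav. Single differences of effect were tested 81 times and 1 passed: the MMPdKO difference from WT of Itgb5 was larger in growth plate than in calvaria by 1.17 ± 0.29 on the log2 scale (SE, adjusted p 0.0443 by edgeR), beside 0.548% of all genes. It combined a rise of 0.64 in growth plate with the calvaria value of -0.53. For MMP9-/- the same difference between growth plate and calvaria was 1.08 ± 0.29 for Itgb5 and 0.71 ± 0.19 for Itgb1 (SE, both adjusted p 0.141 by edgeR), beside 0.0265% of all genes called. For MMPdKO that of Itgb1 was 0.70 ± 0.19 (SE, adjusted p 0.0577 by edgeR). The call for Itgb5 was lost in 16 of the 28 fits without 1 of the libraries concerned (0.95 to 1.27 over all 28, adjusted p up to 0.128), with no filter on low counts, and by limma voom with the mouse as a random block at 1.07 (adjusted p 0.0667). It was also lost with each of the 4 sets of marker scores as covariates, and with the erythroid and B cell scores the difference was 0.47 (adjusted p 0.965).

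Over the 12 group means of log2 CPM the members did not move as one. Itgb1 and Itga1 had a Pearson correlation of 0.90 and Itga5 and Itga10 of 0.90, while Itga4 and Itga10 had -0.93. Itgb5 and Itgav, partners in a receptor, had -0.64. Group means share mice, libraries and depth, so these values carry no p. Itgb5 and Itga11 had 0.69, and within calvaria their library deviations had 0.82.

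The genes most like each subunit over the same group means, among about 6801 genes of at least 20 CPM, were named by rank of this correlation. For Itgb5 they were Col16a1 (0.98), a collagen chain, Il11ra1 (0.97), the interleukin 11 receptor, and Gpx3 (0.97), a secreted peroxidase. For Itga4 they included Asf1b, a histone chaperone of dividing cells, and Hmgb3, each at 0.98. For Itga1 they were Alpl, the alkaline phosphatase of mineralizing cells, Col18a1 and Cdh5, the cadherin of endothelium, each at 0.97. For Itgb1 they were Rps4l (0.96), Elovl1 (0.95) and Tie1 (0.94), the last an endothelial receptor. For Itga10 they were Ryk, Gnb4 and Plod1, each at 0.97. For Itga5 they were Clptm1 (0.95), Ccn5 (0.94) and Polr2e (0.94). For Itga6 and Itga11 the most alike genes were Cdk5 (0.91) and Kctd10 (0.92).

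The ligands of these receptors and the proteins that tie them to actin were described from lists of other genes of the pathway. In that comparison of growth plates 8.01% of all genes passed and 3.38% passed as higher. Of 16 collagens 3 were higher in MMPdKO than in WT growth plates and 0 were lower, with a median log2 fold change of 0.48. They were Col4a1, at 1.02 ± 0.22, Col6a2, at 0.78 ± 0.24, and Col4a2, at 0.66 ± 0.21 (SE). The Col4a1 and Col4a2 chains form the collagen of basement membranes. Of 22 fibronectin and RGD ligands 4 were higher and 0 lower, among them Fn1, fibronectin itself, at 0.66 ± 0.19, and Npnt, the nephronectin bound through Itga8, at 0.94 ± 0.30 (SE). Of 10 laminins and other basement membrane genes 4 were higher and 0 lower, with a median of 0.63 beside -0.01 over all genes. Of 34 genes of the adhesion complex 3 were higher and 2 lower. Lims2 rose by 1.14 ± 0.30, while Fermt3, the kindlin of blood cells, fell by 0.77 and Apbb1ip, which links Rap1 to talin, fell by 1.04. Of 12 other integrin subunits 1 passed, Itga3, at 1.57 ± 0.42 (SE). Its mean level was low, at 5.98 CPM in WT and 19.3 CPM in MMPdKO growth plates, and its call was not checked in the alternative fits. Of the endothelial markers 7 of 12 were higher in these MMPdKO growth plates, and their sums were 479 to 767 CPM in WT and 652 to 1331 CPM in MMPdKO. Of the neutrophil markers 8 of 13 were lower, with sums of 3398 to 9350 CPM and 652 to 3546 CPM. Their part in the values of the basement membrane genes and of Fermt3 was not tested.

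The same lists were counted between WT growth plate and calvaria, where 5.24% of all genes passed. Of the 16 collagens 6 were higher and 2 lower in growth plate, led by the cartilage collagens Col2a1 at 4.55 ± 0.67, Col9a1 at 4.21 ± 0.63 and Col11a1 at 2.40 ± 0.24 (SE). Of the fibronectin and RGD ligands 3 were higher and 5 lower: Tnn, a tenascin, was at -3.04 ± 0.33 and Thbs2, a thrombospondin, at -1.81 ± 0.25, while Ibsp, the bone sialoprotein, was at 1.75 ± 0.32 (SE). Of the 10 laminin and basement membrane genes 1 was higher and 2 were lower, and of the 34 genes of the adhesion complex 0 were higher and 1 was lower. Of the 12 other integrin subunits 1 was higher, Itgb3, the other common partner of Itgav, at 0.61 ± 0.16, and 1 was lower, Itgad, at -2.51 ± 0.71 (SE). Itgad had mean levels of only 1.03 CPM in growth plate and 7.28 CPM in calvaria, so its difference rests on few counts. Of the members themselves 1 passed, Itgb5. The lists differ in depth and were not compared by a test.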

How the data were processed

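RNA from growth plate, calvaria and cortical bone was read by a bulk form of MARS-seq, which counts the 3' ends of polyadenylated transcripts. The authors deposited raw counts per gene (cutadapt, STAR 2.7.3a, GRCm38, HTSeq, bcl2fastq 2.20.0.422), and whether reads of 1 molecule were collapsed is not given in the sources used here. They also deposited a normalized signal, in which the counts of a sample are divided by 1 size factor (DESeq2 1.26.0), checked here to within 0.0586% and not tested. Columns of 80 libraries were matched to samples by name.

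The counts entered 1 quasi-likelihood fit in edgeR 4.0.16 (TMM, R 4.3.3) of all 80 libraries, with a mean for each of the 12 groups, and genes that never reached 15 counts in a library were left out. A gene passes at a Benjamini-Hochberg adjusted p under 0.05 over all genes tested in a contrast. Levels are CPM scaled by TMM library sizes, and intervals are 95%. Of 21 contrasts, 9 compared tissues in knockout lines, 3 in WT, and 9 compared a line with WT. On simulated counts for MMPdKO against WT growth plate, 86% of 4-fold changes were recovered, 6 unchanged genes of 10785 were called, and 0 were called where none changed.

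All 10 subunits are named, with up to 4 genes of each pathway list by smallest adjusted p and the 3 genes most like each subunit. For Itga6 and Itga11 the first of these is given, and some genes this rule would name are not reported here. Itga3 is named under the same rule. The members and lists were chosen with earlier results of these data known. Replicates are labelled as separate samples of mice, and 0 of 229 replicate pairs had counts alike within sampling noise.

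The mouse is named in the sample descriptions, and 17 mice gave 3 tissues, 13 gave 2 and 3 gave 1. The names of some WT mice end in 20, while those of the other WT mice and of all knockout mice end in 21. What these endings mark is not stated in the labels, and their part in the differences was not tested. Deviations from group means correlated at 0.017 on average over 64 pairs of tissues of the same mouse and at -0.0019 over 470 pairs of different mice. Since those tissues come from the same animal, blocks on the mouse were run as alternatives, beside DESeq2 1.42.0, limma 3.58.1, RLE size factors, 2 other filters, totals without haemoglobin and muscle genes, fits that carried marker scores, and fits without each library. A left-out library was refitted for the contrasts of its own group. Marker sums add the CPM of a list's genes, and a marker score is the mean log2 CPM of a list with a prior count of 2.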

Additional observations from a re-analysis of the deposited data

Results flagged for a closer look

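Each of 108 sets of libraries, a member in a group, was checked for a library far from the rest of its group (Dixon's gap test at 95%), which chance flags in about 1 group in 20. It marked 8. Itgav was 58.9 CPM in growth plate MMP2-/- replicate 4, with the next library at 12.7 CPM, and 26.0 CPM in calvaria MMPdKO replicate 6, with the next at 13.3 CPM. Itga1 was 65.7 CPM in growth plate MMP9-/- replicate 7, above 47.4 CPM. Itga5 was 83.0 CPM in growth plate MMPdKO replicate 7, above 55.1 CPM, and 44.9 CPM in calvaria MMPdKO replicate 7, above 15 CPM. Itga10 was 30.7 CPM in cortical bone MMPdKO replicate 2, below 90.9 CPM. Itga11 was 121 CPM in growth plate MMP2-/- replicate 5, above 57.3 CPM, and 158 CPM in growth plate MMP9-/- replicate 7, above 74.9 CPM.

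A difference between tissues was marked by its own test. The MMPdKO difference from WT of Itgb5 was larger in growth plate than in calvaria by 1.17 on the log2 scale.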

How the results depend on the processing

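For the 21 contrasts, 14 alternatives were run, and each of the 80 libraries was left out in turn. In WT tissues 2 to 3 of 27 tests passed under every alternative and every library left out. In knockout tissues 20 of 81 passed, and 10 did with the muscle and neutrophil scores as covariates, 11 with the erythroid and B cell scores, 10 with the chondrocyte score and 9 with the endothelial score, the last 3 chosen after seeing the data. Leaving out 1 library gave 18 to 22. In growth plate genotype tests 3 passed, 0 with the muscle and neutrophil, erythroid and B cell, or endothelial scores, 1 with the chondrocyte score, and 5 with only the libraries compared or by DESeq2. Leaving out 1 library gave 1 to 4, with 1 left without growth plate WT replicate 1, 3 or 5 or growth plate MMPdKO replicate 3 or 7. Calvaria and cortical bone stayed at 0 of 27 by edgeR and DESeq2 in all of these. The interaction test called 0 members, but 1 by DESeq2, which gave an adjusted p for only some of them. The log2 fold change of Itga11 between growth plate and calvaria turned from 0.21 to -0.71 in MMP9-/- (adjusted p 0.0154) and from 0.21 to -0.73 in MMPdKO (adjusted p 0.0151) with the erythroid and B cell scores. The cause was not tested.

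With the title number as a block 3 WT, 19 knockout and 3 growth plate tests passed, and with the mouse as a random block (limma voom, correlation within mouse 0.013) 3, 22 and 2. With the mouse as a fixed block on the 77 libraries of the 30 mice that gave at least 2 tissues, 2 WT and 19 knockout tests passed, beside 2 and 21 without it. Beyond the calls given beside the results, the mouse as a fixed block added Itgb5 between growth plate and cortical bone and Itgb1 between cortical bone and calvaria, both in MMP9-/-. The limma voom fit, which changed the method along with the block, added Itga10 between growth plate and cortical bone in MMP2-/- and MMP9-/-, and the latter also passed without a block on the 77 libraries. Low depth limits Itga8 and Itgav most, then Itga5 and Itga4.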
